A study of Mus musculus with 9 samples.

Results

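The MCU knockout and the MCUb knockout were compared with each other in mouse tibialis anterior (TA), a shin muscle made mostly of fast fibres, to ask which transcripts separate a muscle without the uniporter pore from a muscle without its paralogue. The comparison used 6 of the 9 arrays of the study, chosen by their titles. These were 3 arrays of the genotype MCU-/-/MCUb+/+ and 3 of the genotype MCU+/+/MCUb-/-, and the 3 control arrays (MCU+/+/MCUb+/+) stayed out of the contrast. All mice were of the C57/BL6 strain and 2 months old, and no drug or other treatment is named for any group. Whether the deletions cover the whole body or muscle alone, and which Cre line or editing step made them, was not given in the sources used here, nor were sex, litter or hour of harvest. Frozen muscle was extracted with Trizol, and biotin-labelled targets were hybridised to Clariom S mouse arrays, which carry a single probe set for most genes. The study as a whole concerns MCUb as an inducible activator of oxidative phosphorylation.

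The mitochondrial calcium uniporter carries calcium from the cytosol into the mitochondrial matrix. MCU forms the pore, the MICU proteins set the calcium level at which it opens, and the small protein EMRE (gene Smdt1) links them. MCUb is a paralogue that enters the same complex and is regarded as lowering its conductance. Matrix calcium is known to act on pyruvate dehydrogenase and on dehydrogenases of the citrate cycle.

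Values were read as log2 signal per probe set, as deposited, with 22206 probe sets tested. A probe set was called above background on an array when it passed the 95th percentile of 23 background sets on that array (5.87 to 5.92). Between 45.3% and 45.9% of probe sets did so on each array, and array medians lay between 5.51 and 5.60. The labelled tissue was checked with 20 skeletal muscle fibre genes: all 20 were above background on at least 1 knockout array, and their median difference between the knockouts was -0.01. On the first principal component of the 6 knockout arrays (27.9% of the variance), the MCU knockout arrays lay at 1.36, -30.1 and -32.0 and the MCUb knockout arrays at 6.41, 26.2 and 28.1. The Y-linked genes Uty and Kdm5d divided the arrays differently. Their mean level was high on MCU knockout replicates 2 and 3 (7.56 and 7.24) and on MCUb knockout replicate 1 (7.80), and low on MCU knockout replicate 1 (3.58) and MCUb knockout replicates 2 and 3 (3.01 and 3.58). MCU knockout replicate 1 and MCUb knockout replicate 1, each unlike the rest of its group in Y-linked level, lay between the other arrays on the first component. The parts of genotype and Y-linked level in that component therefore cannot be told apart. For this reason differences are also given within the arrays of low and within the arrays of high Y-linked level. The labels do not state whether each sample is a separate animal. The difference in Uty and Kdm5d within each knockout group shows more than 1 animal in both, but samples of like Y-linked level could still be repeats, so part of the spread behind the p-values may be technical.

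A short list of genes separated the knockouts. Of 22206 probe sets, 35 (0.158%) passed an adjusted p of 0.05, 14 of them higher in the MCU knockout (0.063%) and 21 lower (0.0946%). The size of these differences ran from 1.11 to 4.64 on the log2 scale, so the smallest was 2.15-fold. All 35 had groups that did not overlap, against 12.8% of all probe sets (6.59% with the MCU knockout higher and 6.19% lower). The calls rest on the same values, so this adds no support to them. Without adjustment, 1266 probe sets (5.7%) had a p under 0.05, of which 595 were higher (2.68% of all) and 671 lower (3.02%). The number of arrays limited the precision: at the median standard error (SE) of 0.23 a difference had to reach 1.40 to pass. Leaving out MCU knockout replicate 3 lowered the count from 35 to 13, leaving out MCUb knockout replicate 2 lowered it to 23, and leaving out MCUb knockout replicate 3 lowered it to 19. Groups without overlap fix the direction within any subset of arrays, so all 35 kept it within the low and within the high Y-linked arrays. That is therefore no check on the Y-linked level. The smallest differences in size there were 0.895 and 1.14, and in each level 1 knockout group had only 1 array. With the Y-linked level as a term in the fit, 24 of the 35 calls stood; those of Per2, Cry2, Gfer, Ppm1k, Slc7a6, Tnfrsf12a, Flywch2, Wdr83os, Kidins220, Gm4861 and 1 probe set without a symbol ended. Across all probe sets the difference centred near 0, with a median of 0.01 and 52.3% higher in the MCU knockout.

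**Figure D1:**
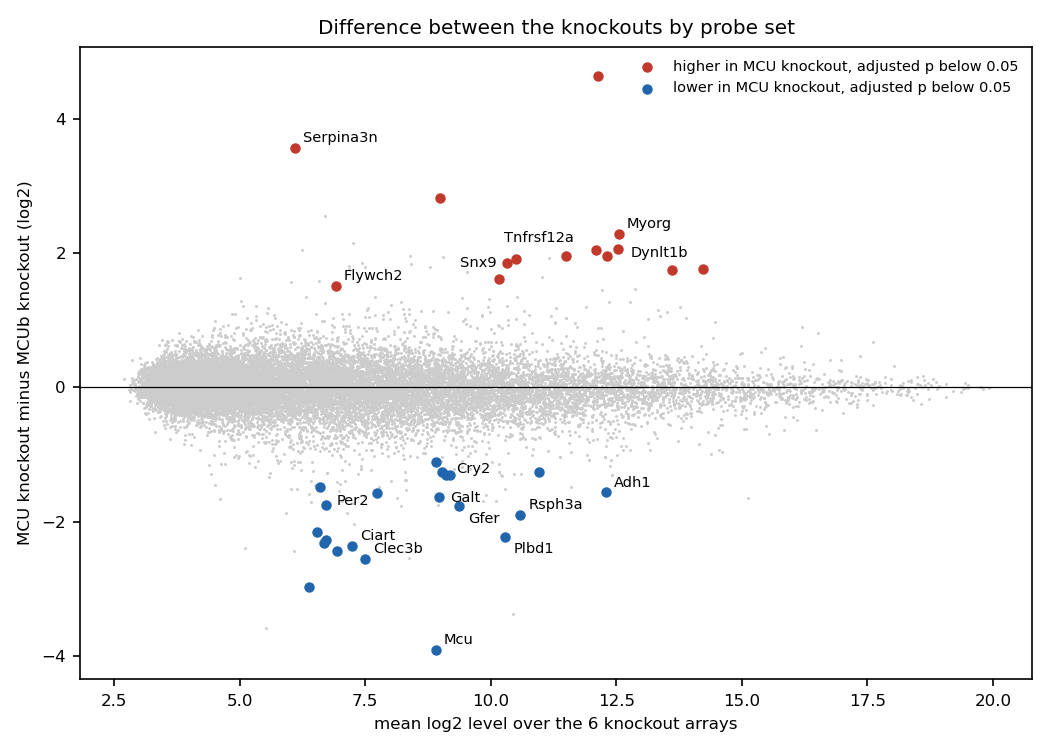
Difference between the knockouts (MCU knockout minus MCUb knockout, log2) against the mean log2 level over the 6 knockout arrays, 1 point per probe set. Grey points did not pass the threshold, and the 14 red and 21 blue points, which include Mcu at -3.91, did; points are drawn at measured values, also where a group is below background, as for Serpina3n (at least 3.97-fold).

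Mcu itself (probe set TC1000002212.mm.2, chromosome 10) gave the largest difference among the genes with a symbol. Its log2 level was 6.80, 6.98 and 7.06 on the MCU knockout arrays and 10.71, 11.06 and 10.81 on the MCUb knockout arrays, with controls at 10.38, 10.96 and 10.46. The MCU knockout arrays stood far below all others, while MCUb knockout and control arrays overlapped. The means were 6.94 ± 0.13 (SD, n = 3) and 10.86 ± 0.18, a difference of -3.91 (SE 0.20), or 15.1-fold, with an adjusted p of 1.65e-05. A two-sided exact permutation test over the arrays gave 0.1, which is the lowest p possible with 3 against 3. Some Mcu signal remained above background in all 3 MCU knockouts, and the position of the probes against the deleted sequence was not given in the sources used here. Mcub was not analysed here, so the label MCUb-/- was not checked by transcript level.

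No other gene of mitochondrial calcium transport passed. Of 12 measured members of a list of 14, 3 were higher and 9 lower in the MCU knockout, and the median difference was -0.08. These counts include Mcu itself among the 9. Micu2 differed by -0.47, Micu3 by -0.10 and Smdt1, which encodes EMRE, by -0.04, and none passed. Mcur1, a scaffold factor of the uniporter, had a difference of -0.48 (SE 0.17, adjusted p = 0.683). Ucp3, an inner membrane carrier protein of muscle mitochondria, lay at 12.77, 11.39 and 12.22 in the MCU knockout against 10.34, 10.70 and 9.58 in the MCUb knockout. Its groups did not overlap, yet the difference of 1.92 (SE 0.39, adjusted p = 0.135) did not pass.

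Serpina3n, a secreted inhibitor of serine proteases, was above background in the MCU knockout and below it in the MCUb knockout. Its level (TC1200001047.mm.2, chromosome 12) was 7.71, 8.16 and 7.77 there and 4.32, 3.87 and 4.76 in the MCUb knockout. The MCUb knockout lay with the controls (4.14, 4.20 and 4.02), and the difference was at least 3.97-fold (adjusted p = 0.00011). Saa1 (0.41, adjusted p = 0.924) and Orm1 (0.59, adjusted p = 0.512), acute-phase genes of the same list, did not pass; Orm1 was not above background on any knockout array and Saa1 on no MCUb knockout array. Of the 15 measured members of the Serpina3 and acute-phase list, 8 were higher and 7 lower, with a median of 0.02.

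Myorg, a glycosidase found in muscle, was 4.88-fold higher in the MCU knockout. It stood at 13.59, 13.60 and 13.88 against 11.01, 11.70 and 11.50 (difference 2.29, SE 0.29, adjusted p = 0.00959), and the MCU knockout arrays were above every other array. The call ended without replicate 3 of the MCU knockout or MCUb knockout replicate 3, with an adjusted p of up to 0.0717. Rhobtb3, which encodes a protein of the Golgi, was at 12.37, 12.31 and 12.72 against 10.54, 10.34 and 10.66, a difference of 1.96 (SE 0.20, adjusted p = 0.00216). The MCUb knockout arrays of Rhobtb3 lay among the controls (10.27, 10.50 and 10.70). Snx9, a sorting nexin of endocytosis, was at 11.32, 11.23 and 11.23 against 9.53, 9.22 and 9.47, a difference of 1.85 (SE 0.18, adjusted p = 0.00153). The SD of Snx9 within the MCU knockout was 0.05.

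The dynein light chain genes Dynlt1a, Dynlt1b, Dynlt1c and Dynlt1f all passed, with differences of 1.77, 2.06, 1.95 and 1.75. Dynlt1b stood at 13.33, 13.69 and 13.68 in the MCU knockout and 11.27, 11.60 and 11.64 in the MCUb knockout (SE 0.21, adjusted p = 0.00255). The 4 genes are near-identical copies, so their probes may read each other's transcripts, and the values are uncertain as separate genes. The calls of Dynlt1a and Dynlt1c ended without MCU knockout replicate 3, at an adjusted p of 0.0539 and 0.0501. That of Dynlt1f ended without replicate 2 or 3 of the MCU knockout or MCUb knockout replicate 1 or 3, with an adjusted p of up to 0.0717.

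Tnfrsf12a, the receptor of the cytokine TWEAK, followed a different order of genotypes. Its level was 13.20, 12.80 and 13.33 in the MCU knockout, 10.81, 11.63 and 10.75 in the MCUb knockout and 14.62, 14.25 and 13.36 in controls. Both knockouts lay below all controls, and the MCUb knockout lay lowest. The difference of 2.05 (SE 0.34, 4.13-fold) passed narrowly with an adjusted p of 0.0489, and it passed in 8 of 17 alternatives. The call ended with arrays centred on their median, with the replicate number as a block, with the Y-linked level in the fit, without MCU knockout replicate 1, 2 or 3, without MCUb knockout replicate 1 or 3 and without control replicate 2, with an adjusted p of up to 0.290 over the alternatives. TWEAK signalling feeds NF-kB, and of 20 measured genes of that list Tnfrsf12a alone passed, with 12 higher, 8 lower and a median of 0.10. Flywch2, the last named gene on the higher side, had 8.15, 7.66 and 7.20 against 6.08, 5.97 and 6.41 (difference 1.51, SE 0.24, adjusted p = 0.0468). It passed in only 4 of 17 alternatives, with an adjusted p of up to 0.234, and the call ended without any 1 array except MCU knockout replicate 3. Of the genes just outside the threshold, Tmem181b-ps differed by 1.13 (adjusted p = 0.0564) and Washc2 by 1.31 (adjusted p = 0.0611), both higher in the MCU knockout.

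Clec3b, which encodes the plasminogen-binding protein tetranectin, was next to Mcu among the named genes on the lower side. Its level (TC0900001658.mm.2, chromosome 9) was 5.92, 6.57 and 6.17 in the MCU knockout and 8.11, 9.07 and 9.13 in the MCUb knockout, with controls close together at 7.05, 7.11 and 7.09. The controls lay between the knockouts, and no array of one group entered another. The difference was -2.55 (SE 0.28, 5.86-fold, adjusted p = 0.00339), with the MCU knockout above background on 2 of 3 arrays. It was -3.18 within the low and -1.74 within the high Y-linked arrays. Clec3b had been listed as a fibroblast gene, and that list went the other way: 22 of its 25 measured members were higher in the MCU knockout, with a median of 0.26. Over the alternatives that tested all 25, 17 to 23 were higher and the median ran from 0.08 to 0.55. None of the 22 passed the threshold.

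Plbd1, a phospholipase B-like protein, stood at 9.24, 9.30 and 8.96 against 10.84, 11.87 and 11.46 (difference -2.22, SE 0.26, adjusted p = 0.00551). Its MCUb knockout arrays overlapped the controls (11.49, 11.32 and 10.99), and without MCU knockout replicate 3 the adjusted p was 0.0501. Galt, an enzyme of galactose breakdown, was at 8.08, 8.04 and 8.35 against 9.60, 9.95 and 9.83 (difference -1.64, SE 0.18, adjusted p = 0.00396). Its call stood in all 17 alternatives. Slc7a6, an amino acid transporter, was at 6.21, 5.69 and 5.65 against 7.32, 7.50 and 7.18 (difference -1.48, SE 0.22, adjusted p = 0.0217). Only 1 of its 3 MCU knockout arrays was above background, and the call ended with the replicate number as a block, with the Y-linked level in the fit, and without MCU knockout replicate 2 or 3 or any MCUb knockout replicate, with an adjusted p of up to 0.152.

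Adh1, an alcohol dehydrogenase that also oxidises retinol, was set apart by the MCUb knockout. It stood at 11.33, 11.82 and 11.39 in the MCU knockout and 12.92, 13.10 and 13.16 in the MCUb knockout, with controls at 11.01, 10.95 and 11.44. The MCUb knockout arrays were above every other array. The difference was -1.55 (SE 0.21, 2.93-fold, adjusted p = 0.0119), and the call ended without replicate 1 or 3 of the MCU knockout or MCUb knockout replicate 2 or 3, with an adjusted p of up to 0.0866. Of 23 measured genes of retinoid metabolism, Adh1 alone passed, 15 were higher and 8 lower, and the median was 0.09. Dhrs3, a retinal reductase, went the other way at 11.81, 11.01 and 11.05 against 10.26, 9.89 and 10.50, a difference of 1.07 that did not pass (SE 0.25, adjusted p = 0.287).

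Among the mitochondrial lists, 3 genes other than Mcu passed, all lower in the MCU knockout: 1 of 40 measured import and chaperone genes, 1 of 80 of the mitochondrial ribosome and 1 of 21 of branched-chain and ketone breakdown, against 0.0946% of all probe sets called lower. Gfer, a sulfhydryl oxidase of the intermembrane space that serves protein import, was at 8.30, 8.50 and 8.66 against 9.93, 10.70 and 10.15 (difference -1.77, SE 0.25, adjusted p = 0.0163). Gadd45gip1, a protein of the mitochondrial ribosome, was at 6.92, 7.15 and 6.77 against 8.64, 8.48 and 8.42 (difference -1.56, SE 0.19, adjusted p = 0.00551). For both, the MCUb knockout overlapped the controls, which were at 9.82, 10.53 and 10.02 for Gfer and at 8.52, 8.91 and 8.59 for Gadd45gip1. Ppm1k, the phosphatase that activates branched-chain keto acid dehydrogenase, was at 8.53, 8.07 and 8.62 against 9.77, 9.59 and 9.66 (difference -1.26, SE 0.21, adjusted p = 0.0489). Its controls (8.90, 9.02 and 8.52) lay nearer the MCU knockout. The Gfer call ended with the Y-linked level in the fit, without any single MCU knockout array and without MCUb knockout replicate 2 or 3 (adjusted p up to 0.0866). The Gadd45gip1 call ended without MCU knockout replicate 3 (0.0501). Ppm1k passed in 3 of 17 alternatives and lost its call without any 1 array other than control replicate 3 (adjusted p up to 0.230).

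Further called features were singled out after their values were seen. Rsph3a, a radial spoke gene that the naming rule also picked, was at 9.39, 9.89 and 9.62 in the MCU knockout against 11.32, 11.69 and 11.61 (difference -1.91, adjusted p = 0.00309); it has a close copy, Rsph3b, which did not pass (adjusted p = 0.112) and was not above background on any MCU knockout array, so its value is uncertain. Wdr83os (-1.30, adjusted p = 0.0144) and Kidins220 (-1.25, adjusted p = 0.0336) were lower, and 4833420G17Rik was at least 3.92-fold lower in the MCU knockout, where no array was above background. Gm13304 (-2.15), Gm4861 (-2.43) and 1 probe set of Gm10591 (-2.31) were lower and 9030025P20Rik was higher (1.91), all of them predicted genes or clone names. The slightly brighter of the probe sets of Gm10591 differed by -1.27 and did not pass (adjusted p = 0.0636). The called probe set of Gm10591, that of Gm13304 and TC0400000388.mm.2, which has no symbol (-2.27), had near-equal levels on each knockout array. They may read the same transcripts and are uncertain as separate calls. For these 3 and for Gm4861, only 1 of 3 MCU knockout arrays was above background. The difference furthest from 0 belonged to a probe set without a symbol, TC0Y00000223.mm.2, at 15.19, 13.68 and 14.52 in the MCU knockout and 9.82, 10.26 and 9.39 in the MCUb knockout. Controls were at 13.86, 13.59 and 12.87, so the MCUb knockout stood below all other arrays. The difference of 4.64 between the knockouts (SE 0.38) had an adjusted p of 0.000733, and the levels did not follow Uty and Kdm5d. TC0X00001715.mm.2, also without a symbol, ranked the arrays in nearly the same order (difference 2.81, SE 0.37, adjusted p = 0.0106). These 2 calls may not be separate signals. The call of TC0X00001715.mm.2 ended without replicate 3 of either knockout (adjusted p up to 0.0834). The calls of 4833420G17Rik, 9030025P20Rik, Rsph3a and TC0Y00000223.mm.2 stood in all 17 alternatives. Without MCU knockout replicate 3 the calls of Wdr83os, Kidins220, Gm13304, Gm10591 and Gm4861 all ended. Kidins220 also lost its call without any other knockout array or control replicate 1 (adjusted p up to 0.185), and Wdr83os without replicate 1 or 2 of the MCU knockout or MCUb knockout replicate 1 or 2 (up to 0.0887). Gm13304 lost it without MCUb knockout replicate 2 or 3, Gm10591 without MCU knockout replicate 1 or any MCUb knockout replicate, and Gm4861 without replicate 1 or 2 of the MCU knockout or MCUb knockout replicate 1 or 3, with an adjusted p of up to 0.129.

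The control arrays place each difference, although they took no part in the contrast. Of the 35 called probe sets, the control mean lay nearer the MCUb knockout in 28 and nearer the MCU knockout in 7. All 3 control arrays had low Uty and Kdm5d levels (3.49, 3.12 and 3.89), as had MCUb knockout replicates 2 and 3 and MCU knockout replicate 1. The part of the Y-linked level in this placement was not tested. The control mean was within 25% of the gap from the MCUb knockout mean in 19, within 25% from the MCU knockout mean in 2 and between these ranges in 12. The named genes nearer the MCU knockout were Clec3b, Ciart, Adh1, Ppm1k and Tnfrsf12a. Ciart lay almost midway, with the control mean of 7.20 between 6.05 and 8.42.

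**Figure D2:**
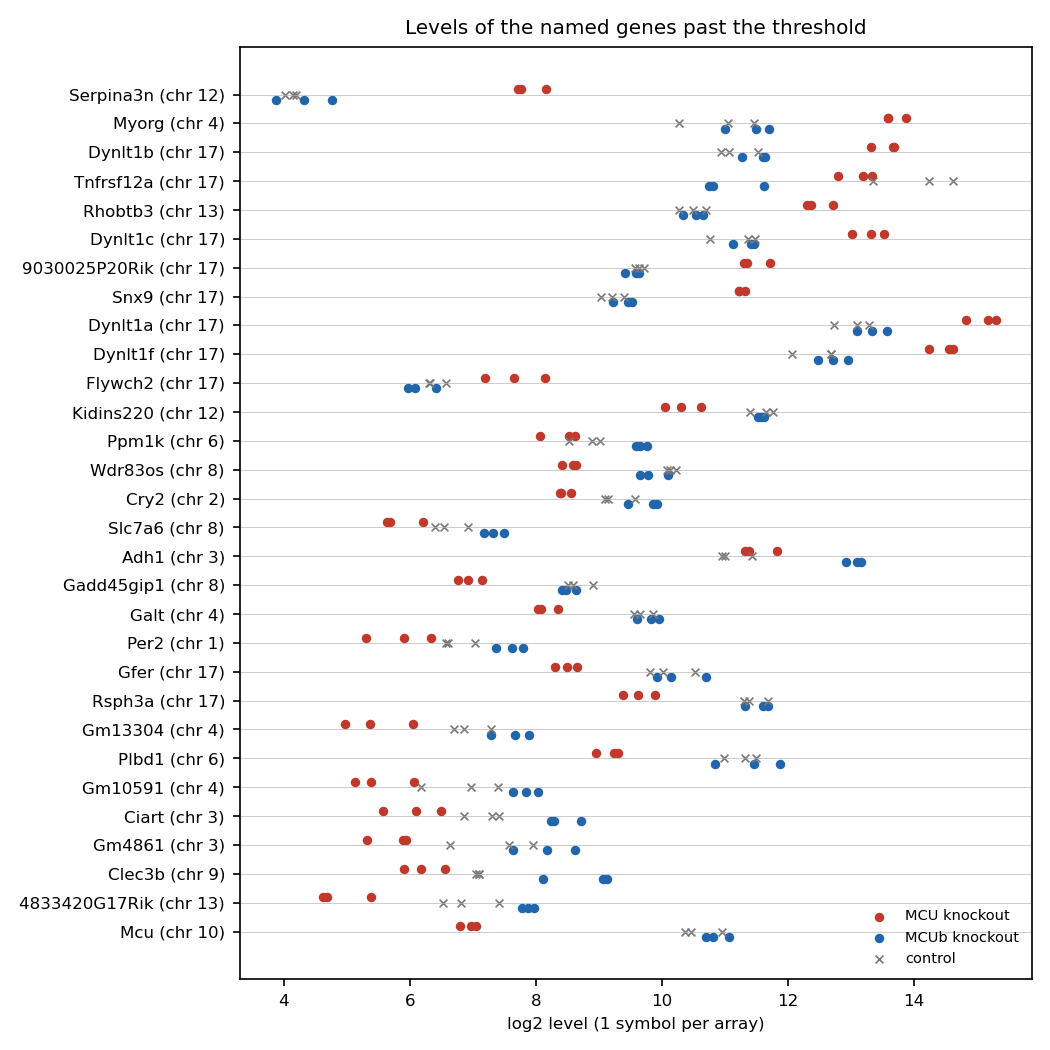
Log2 levels of the 30 called probe sets with a symbol, 1 symbol per array, with the MCU knockout in red, the MCUb knockout in blue and controls as grey crosses; the chromosome follows each name. The knockout groups do not overlap for any gene shown, and controls sit with the MCUb knockout for Serpina3n and Mcu but with the MCU knockout for Adh1.

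Genes of the circadian clock held 3 of the 35 calls. In the clock, CLOCK and BMAL1 (gene Arntl) switch on E-box genes, among them the Per and Cry genes and Ciart, whose proteins then repress CLOCK and BMAL1. The nuclear receptors NR1D1 and NR1D2 repress Arntl, ROR proteins activate it, and DBP, TEF and HLF carry the rhythm to output genes. Of 21 measured clock genes 3 were called (14.3%, against 0.158% of all probe sets), all lower in the MCU knockout and all repressors. Groups did not overlap for 9 lower and 2 higher clock genes (52.4%, against 12.8%).

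Ciart, a repressor of CLOCK and BMAL1, showed the widest difference of the clock genes. Its level (TC0300002489.mm.2, chromosome 3) was 6.50, 5.57 and 6.09 in the MCU knockout, 8.29, 8.25 and 8.71 in the MCUb knockout and 7.30, 6.87 and 7.42 in controls. The 3 genotypes did not overlap. The difference between the knockouts was -2.37 (SE 0.26, 5.15-fold, adjusted p = 0.0037), and it passed in all 17 alternatives. Ciart was above background on 2 of the 3 MCU knockout arrays. Per2, a core repressor, was at 6.33, 5.31 and 5.90 in the MCU knockout and 7.80, 7.63 and 7.37 in the MCUb knockout, with controls between them at 6.61, 7.04 and 6.58. Its difference was -1.75 (SE 0.26, 3.37-fold, adjusted p = 0.0265), with the MCU knockout above background on 2 of 3 arrays. The Per2 call passed in 8 of 17 alternatives. It ended with the 6 knockout arrays alone, with the replicate number as a block, with the Y-linked level in the fit, and without MCU knockout replicate 2 or 3, any MCUb knockout replicate or control replicate 1, with an adjusted p of up to 0.152.

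Cry2, the repressor that partners the PER proteins, was at 8.39, 8.40 and 8.56 against 9.93, 9.46 and 9.86, with controls at 9.09, 9.15 and 9.58. The MCU knockout lay below all other arrays, and the MCUb knockout overlapped the controls. The difference was -1.30 (SE 0.20, 2.46-fold, adjusted p = 0.0336). This call passed in 5 of 17 alternatives and ended without any 1 knockout array and without control replicate 1 or 2, with an adjusted p of up to 0.213. Within the low and the high Y-linked arrays the differences were -1.98 and -2.46 for Ciart, -1.17 and -2.19 for Per2, and -1.27 and -1.45 for Cry2.

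The promoters of Ciart and Cry2, the called repressors held in the RefSeq promoter table of GRCm38.p6, differ in matches to CACGTG. This is the exact form of the E-box, the site that CLOCK and BMAL1 bind. Both run from 250 bases before to 50 bases after the start, 5′ to 3′ on the minus strand, and capitals mark CACGTG. Ciart is at chr3:95882179-95882478 and Cry2 at chr2:92434020-92434319.
Ciart: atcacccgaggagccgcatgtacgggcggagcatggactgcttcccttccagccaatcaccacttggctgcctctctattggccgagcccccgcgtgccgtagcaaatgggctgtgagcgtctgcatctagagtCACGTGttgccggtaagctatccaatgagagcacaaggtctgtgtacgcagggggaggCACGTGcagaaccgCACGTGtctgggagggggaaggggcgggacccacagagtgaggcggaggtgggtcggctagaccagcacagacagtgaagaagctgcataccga
Cry2: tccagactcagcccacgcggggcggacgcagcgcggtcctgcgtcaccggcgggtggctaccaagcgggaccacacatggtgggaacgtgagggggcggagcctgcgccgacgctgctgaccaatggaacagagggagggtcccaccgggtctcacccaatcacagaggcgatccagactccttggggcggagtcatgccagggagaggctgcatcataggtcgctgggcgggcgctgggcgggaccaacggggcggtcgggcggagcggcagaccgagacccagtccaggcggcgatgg
Ciart holds 3 CACGTG matches, which begin at positions -116, -58 and -44 from the start, and Cry2 holds none. Variants of these letters were not searched, so Cry2 is not shown to lack an E-box. CACGTG reads the same on both strands, and 7.15% of 32851 promoters of this length hold it. By gene, 6 of 19 clock genes in the table (Ciart, Per1, Cry1, Bhlhe41, Tef and Tspan4) had a match in at least 1 promoter, against 8.09% of 27025 genes. The D-box, searched as TTATGTAA or TTACATAA on both strands, was found in 1 of 19 (Per3), against 1.11% of genes. AGGTCA, the nuclear receptor motif, was found on either strand in 5 of 19, against 18.1% of genes. A match is a description of the letters and not a site of binding.

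The remaining repressors were lower in the MCU knockout as well, without passing. All 8 measured repressors were lower, with a median of -0.85, beside 0.01 for all probe sets. The mean level of the 8 was 7.99, 7.61 and 8.06 on the MCU knockout arrays, 9.16, 8.77 and 8.84 on the MCUb knockout arrays and 8.33, 8.38 and 8.24 on the controls. The MCU knockout arrays lay below every control and the MCUb knockout arrays above every control. Per1 was at 9.15, 8.73 and 9.19 against 9.85, 9.78 and 10.11 (difference -0.89, SE 0.28, adjusted p = 0.582). Per3 (-0.80), Bhlhe40 (-0.53), Bhlhe41 (-0.37) and Cry1 (-0.27) did not pass either.

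All 6 measured output factors were also lower, with a median of -0.77 and none past the threshold. Dbp, a D-box activator with a strong daily rhythm, was at 13.93, 14.09 and 13.64 in the MCU knockout and 14.84, 15.10 and 14.71 in the MCUb knockout, with controls at 14.52, 14.90 and 14.84. Its knockout groups did not overlap, but the difference of -0.996 (SE 0.20) had an adjusted p of 0.132. Usp2, a deubiquitinase with rhythmic transcription, differed by -0.69 (SE 0.18, adjusted p = 0.423). Tef differed by -0.78, Hlf by -0.79 and Tspan4 by -0.75, each with an SE between 0.27 and 0.30. Nfil3, which opposes Dbp at D-boxes, differed least, by -0.17.

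Of 7 measured activators and nuclear receptors, 5 were higher in the MCU knockout, with a median of 0.25, and none passed. Nr1d1 was at 13.18, 12.68 and 13.11 against 12.17, 11.43 and 11.53 (difference 1.28, SE 0.27, adjusted p = 0.166). Its controls, at 13.75, 13.33 and 14.12, stood above every knockout array, whereas the controls of Ciart and Per2 stood between the knockouts. Arntl was at 7.77, 9.15 and 9.52 against 7.49, 7.57 and 8.09 (difference 1.10, SE 0.40, adjusted p = 0.721). Its difference was -0.06 within the low and 1.84 within the high Y-linked arrays, and MCU knockout replicate 1 lay among the MCUb knockout arrays. Clock differed by 0.46 (adjusted p = 0.721), Npas2 by 0.25, Nr1d2 by -0.27 and Rora by -0.08. The hour of harvest was not given, and its part in these differences was not tested.

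**Figure D3:**
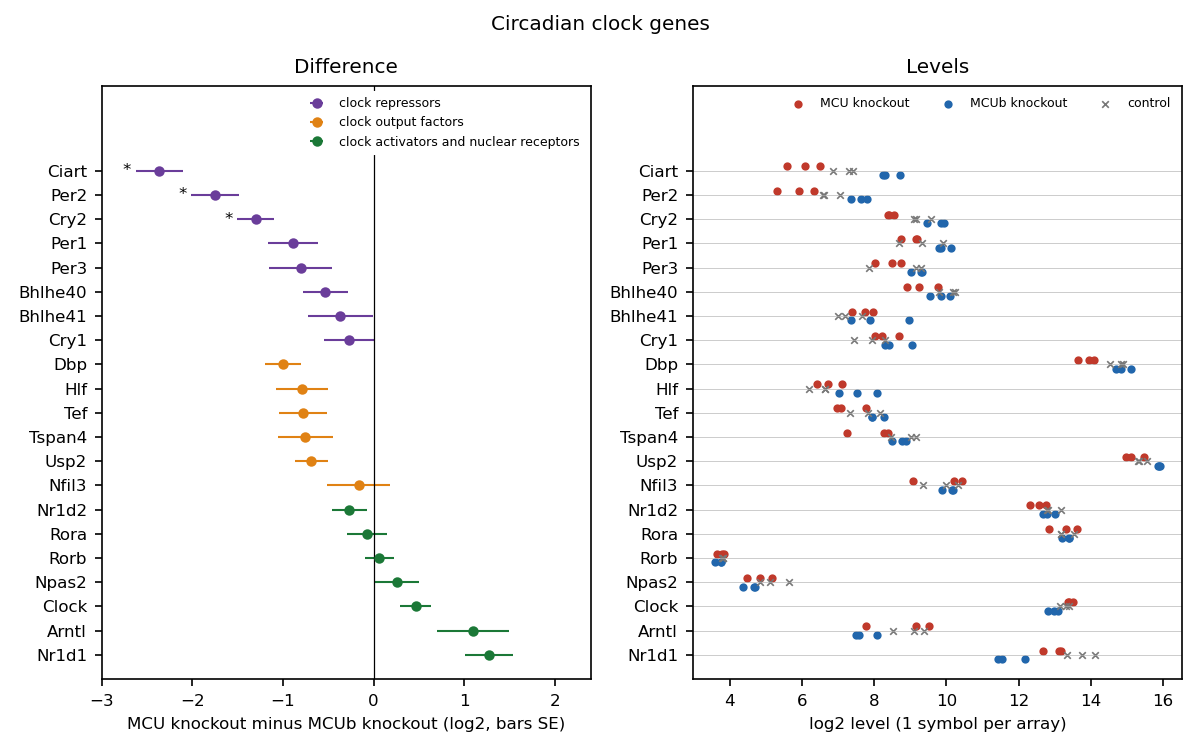
Left, the difference between the knockouts for 21 clock genes (log2, points with SE bars, coloured by role, asterisks for an adjusted p below 0.05). Right, the log2 level on each array; all 14 repressors and output factors lie left of 0 on the left, and MCU knockout arrays lie below MCUb knockout arrays without overlap for Ciart, Per2, Cry2, Per1 and Dbp.

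The called genes were unevenly spread over the chromosomes. Chromosome 17 held 10 of the 29 called genes, 8 higher and 2 lower, which is 1.04% of its 964 tested genes against 0.149% of all 19505. Dynlt1a, Dynlt1b, Dynlt1c and Dynlt1f are among the 10. Their probes may read each other's transcripts, so these copies may not count as separate genes. Chromosomes 3, 4 and 8 held 3 each, chromosomes 6, 12 and 13 held 2 each and chromosomes 1, 2, 9 and 10 held 1 each, while the others held none. The 10 genes lay between Snx9 and Gfer, a stretch with 194 tested genes of which 98 were above background. The difference of those 98 had a median of -0.0017.

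Within that stretch, Snx9, Dynlt1a, Dynlt1b, Dynlt1c, Dynlt1f and Rsph3a lay close together, 6 called of 20 tested genes with each Dynlt1 copy counted separately. Over all tested genes 0.149% were called. The stretch and the runs given here were drawn from called gene to called gene, which raises their share of calls in advance. The 14 uncalled genes of this run had a median difference of 0.02, and of the 8 above background 4 were higher and 4 lower. Serac1 (-0.08) and Gtf2h5 (-0.01), neighbours between Snx9 and Dynlt1a, did not pass. Tagap1, between Dynlt1f and Rsph3a, was at -1.61 (SE 0.27, adjusted p = 0.0564), just outside the threshold, and Tmem242, 4 genes before Snx9, was at 1.07 (adjusted p = 0.188). Further along, Tnfrsf12a and Flywch2 lay within 8 tested genes of each other. On chromosome 4, Myorg (higher), Galt and Gm13304 (both lower) lay within 14 tested genes. On chromosome 3, Gm4861 and Adh1, both lower, lay within 11 tested genes, with Dapp1 between them, which was not above background on any MCU knockout array and did not pass (adjusted p = 0.133). Whether the position of these genes has a part in their differences was not tested.

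**Figure D4:**
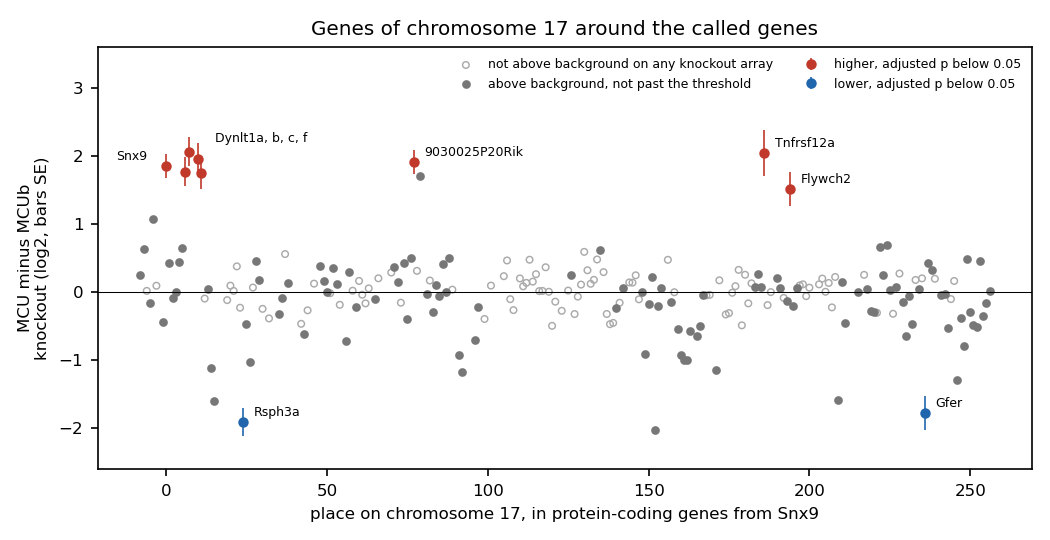
Difference between the knockouts (log2) for the genes of chromosome 17 around the called genes, placed by their order from Snx9 at 0. Red and blue points with SE bars passed the threshold (8 higher and 2 lower), filled grey points are other genes above background and open points are below it. The 98 genes above background from Snx9 to Gfer have a median of -0.0017, and the uncalled ones run from -2.03 (Zfp52) to 1.71 (Gm3435).

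No gene of the respiratory chain or of fatty acid oxidation passed. Complex I (43 measured genes, 18 higher and 25 lower) had a median of -0.02, and complexes II to V (44 genes, 20 and 24) had a median of -0.01, with no call in either. Ndufa3, a complex I subunit, lay furthest out at 14.10, 14.25 and 13.86 against 15.01, 14.89 and 15.09, a difference of -0.93 (SE 0.19, adjusted p = 0.135). Its groups did not overlap, but it did not pass. Cox7a2l, a supercomplex assembly factor, differed by -0.67 (adjusted p = 0.615). The 21 genes of fatty acid oxidation had a median of -0.02, between -0.41 for Slc25a20 and 0.51 for Cpt1a, and the knockout groups overlapped for all 21, against 12.8% of all probe sets without overlap.

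In the citrate cycle and pyruvate list, 12 of 29 measured genes were higher and the median was -0.05. Pdk4, the kinase that switches off pyruvate dehydrogenase, was at 11.81, 10.99 and 11.46 against 10.33, 9.40 and 8.91. The MCU knockout arrays were all higher, and the controls (10.01, 10.85 and 10.38) overlapped the MCUb knockout. The difference of 1.87 (SE 0.36) had an adjusted p of 0.112, and it was 2.66 within the low but 0.89 within the high Y-linked arrays. Mpc1, a subunit of the pyruvate carrier, differed by 0.45 (adjusted p = 0.723). Glycolysis and glycogen genes (26 measured, 9 higher) had a median of -0.09, and fatty acid uptake and droplet genes (22 measured, 7 higher) had a median of -0.07, with no call in either. G0s2, an inhibitor of triglyceride lipolysis, was at 7.93, 8.29 and 8.38 against 8.79, 10.54 and 10.08 (difference -1.60, SE 0.50, adjusted p = 0.573). Genes of fatty acid and sterol synthesis (20 measured, 13 higher) had a median of 0.14, and the branched-chain and ketone list (21 measured, 9 higher) had a median of -0.03 with Ppm1k as its call.

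The lists on building and guarding mitochondria held the Gadd45gip1 and Gfer calls given above. The mitochondrial ribosome list (80 measured, 48 lower) had a median of -0.05, the import and chaperone list (40 measured, 18 lower) 0.01 and the biogenesis and dynamics list (23 measured, 14 lower) -0.10. These 2 calls compare with 0.0946% of all probe sets called lower. Integrated stress response genes (24 measured, 14 higher) had a median of 0.03 with none called, and Ddit3, a factor of that response, differed by -0.41 (adjusted p = 0.948). Redox defence genes were higher in 22 of 29, with a median of 0.10, and proteasome genes in 26 of 31, with a median of 0.13, beside 52.3% of all probe sets. None of these passed, and the proteasome difference furthest from 0 was 0.37, for Psmd12. Srxn1, which repairs peroxiredoxins, was at least 1.75-fold lower in the MCU knockout, where no array was above background (adjusted p = 0.25), and Gclm, an enzyme of glutathione synthesis, differed by 1.01 (adjusted p = 0.877).

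Contractile and calcium-handling genes did not pass in any list. Fast fibre genes (18 measured) had a median of 0.02 and ran from -0.31 to 0.16. Slow and IIa fibre genes (18 measured, 10 lower) had a median of -0.05 but a wide range. Myh2, the IIa myosin, was at 15.47, 13.44 and 13.96 in the MCU knockout and 14.27, 16.90 and 16.64 in the MCUb knockout, so the groups overlapped (difference -1.64, SE 0.65, adjusted p = 0.796). Casq2, the slow-fibre calsequestrin, showed the same overlap at 10.43, 9.12 and 8.24 against 9.89, 11.67 and 11.30 (difference -1.69, adjusted p = 0.57). For Myh2 and Casq2 alike, the 3 arrays of high Y-linked level had the lowest values of the 6. Stim1, a sensor of calcium in the sarcoplasmic reticulum, was at 6.93, 6.53 and 6.70 against 7.95, 7.36 and 7.46 (difference -0.87, SE 0.21, adjusted p = 0.288). Sln, a regulator of the calcium pump, differed by 0.82 (adjusted p = 0.619).

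Growth and stress programmes of muscle were also without a call. Atrophy and FoxO genes (23 measured, 12 higher) had a median of 0.02, with the ligase Fbxo32 at 0.90 (adjusted p = 0.615). The IGF, insulin and myostatin list (29 measured, 16 higher) had a median of 0.02, with Tsc2, a brake on mTOR, at -0.65 (adjusted p = 0.455). Denervation and junction genes (25 measured, 16 higher) had a median of 0.16, stretch and Z-disc genes (27 measured, 17 lower) -0.14 and immediate early genes (28 measured, 17 higher) 0.07. Interferon response genes (22 measured, 12 higher) had a median of 0.05, with Tap1, which was not above background on any MCUb knockout array, at least 1.41-fold higher (adjusted p = 0.60).

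Of the markers of other cells, Clec3b alone passed, and in whole muscle fewer cells of a type and less RNA per cell cannot be told apart. The fibroblast and matrix list averaged 8.27, 9.25 and 8.93 on the MCU knockout arrays and 8.34, 8.75 and 8.81 on the MCUb knockout arrays, so the groups overlapped. Col5a1, a fibrillar collagen, was at 6.80, 7.95 and 7.98 against 6.30, 6.60 and 6.76, a difference of 1.02 (SE 0.32, adjusted p = 0.57). Its difference was 0.12 within the low and 1.66 within the high Y-linked arrays. Endothelial and mural genes (21 measured, 12 higher) had a median of 0.11. Cldn5, the tight junction protein of endothelium, was at 7.51, 7.93 and 8.72 against 6.39, 6.68 and 5.81 (difference 1.76, SE 0.33, adjusted p = 0.098). Its groups did not overlap, while Kdr, an endothelial receptor, differed by 0.96 (adjusted p = 0.802).

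Macrophage and neutrophil genes (18 measured, 8 higher) had a median of -0.05, tendon genes (12 measured, 10 lower) -0.13, satellite cell genes (14 measured, 9 higher) 0.10 and Schwann cell genes (9 measured, 7 higher) 0.06, all without a call. Of 12 lymphocyte genes only Cd4 was above background on any knockout array. Adipocyte genes (12 measured, 9 higher) had a median of 0.10, and 4 of them, Car3, Fabp4, Lpl and Lipe, were above background; the defining markers Adipoq, Plin1 and Cidec were not. Car3 differed by 0.98 (adjusted p = 0.595). Of the blood list, Alas2 (-0.18) and Slc4a1 (0.07) were measured. All 3 measured genes of the Y-linked and X-inactivation list were higher on average in the MCU knockout, and none passed. Only 2 of the 3 were above background on any knockout array. The MCU knockout had 2 arrays of high Uty and Kdm5d level against 1.

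**Figure D5:**
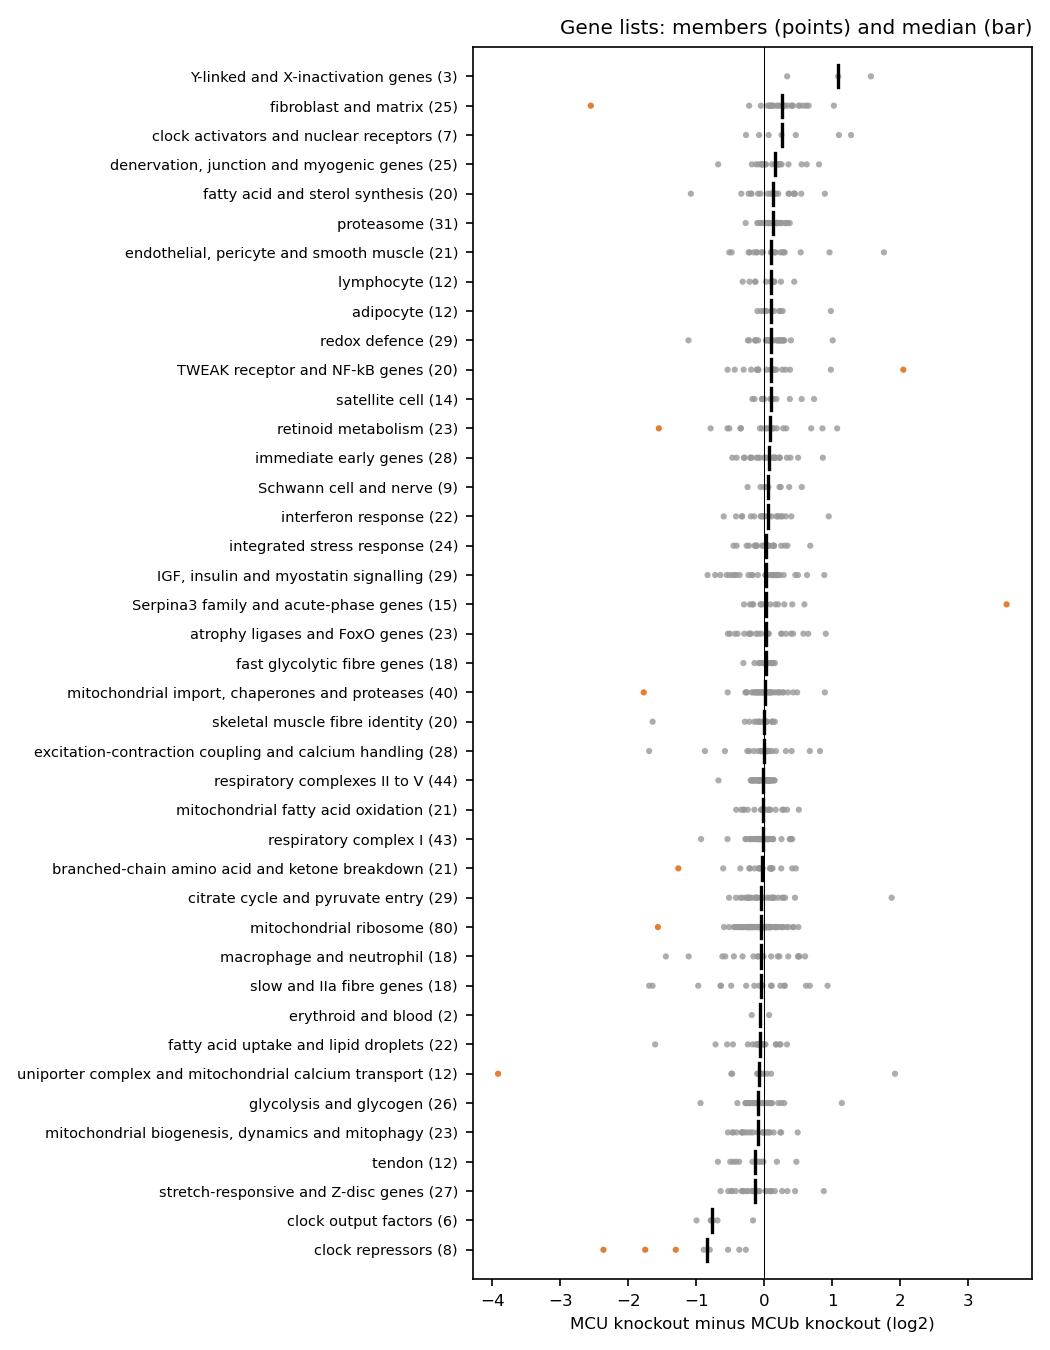
Difference between the knockouts (log2) for every measured member of each gene list, 1 point per gene with the number measured in brackets; black bars are medians and orange points passed the threshold. The medians of the clock repressors (-0.85) and output factors (-0.77) lie furthest below 0, and the lists of energy and lipid metabolism have medians between -0.09 and 0.14.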

How the data were processed

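Total RNA of tibialis anterior muscle from 3 MCU knockout, 3 MCUb knockout and 3 control samples was measured on Clariom S mouse arrays. Per the submitters' processing notes, the deposited log2 values were made with Affymetrix Expression Console. The program version, normalization and log base are not given in the sources used here. From their range (2.46 to 19.9) the values were read as log2, on which every fold rests.

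Of 28846 features, 6640 controls were left out. The platform annotation gave 19572 of the 22206 probe sets 1 symbol, 0 several and 2634 none, and all 19572 were matched by gene identifier to the RefSeq table of GRCm38.p6. All 9 arrays entered 1 fit in limma 3.58.1 (R 4.3.3, lmFit and eBayes, two-sided, no covariate, 6 residual and 5.06 prior degrees of freedom), with the contrast MCU knockout minus MCUb knockout. The controls lent their spread only. The Benjamini-Hochberg adjustment covered all 22206 probe sets, and the threshold was 0.05. The fit was tested on simulated data. Where all arrays of a group were below background, the fold is a lower bound: the brighter group's mean against, per array, the higher of the background limit and the dim signal.

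The compared groups, the gene lists and the naming rule were chosen with earlier results of these data known. By that rule the text names Mcu, up to 12 called genes a side by size with groups that do not overlap (filled by smallest p, predicted and clone names skipped), the called members of 41 lists and up to 3 members of smallest p in each; for several probe sets of a gene the brightest was read. Other members and features were named after their values were seen. Lists were described by counts and medians, without a test. Of 979 list entries, 910 were measured. The replicate numbers shared by the groups were not taken as pairs. Alternatives changed the arrays in the fit, a filter on dim probe sets, the normalization, centring, the variance prior, array weights, the replicate block, the Y-linked level as a covariate and each array left out.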

Additional observations from a re-analysis of the deposited data

How the results depend on the processing

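Of the 132 named genes, values under 17 alternatives and, for called genes only, within the arrays of low or high Y-linked level gave 2254 comparisons. Of these, 2129 kept direction and side of the threshold, 84 lost a call, 10 gained one and 4 reversed. The other 27, all within 1 Y-linked level and without a test, moved by more than the spread between arrays. Uncalled genes were not counted within 1 Y-linked level. Some reversed there, as did Cpt1a (0.51, but -0.12 within the high Y-linked arrays). The count of 35 calls became 61 (24 higher, 37 lower) with array quality weights, and all 35 were among them. Adding the Y-linked level of each array to the fit gave 25 calls, 13 of them lower and 24 among the 35. Leaving out 1 array gave 13 to 43 calls, 7 to 16 higher and 6 to 27 lower, the fewest without MCU knockout replicate 3 and the most without control replicate 3; fewer arrays were then fitted. The other causes were not tested. Of the 35 calls, 12 stood under all 17 alternatives, among them Mcu, Serpina3n, Clec3b, Ciart, Galt, Snx9 and Rhobtb3. The direction held for all 35 throughout, which groups without overlap fix in advance where arrays are only left out. Mcu differed by -4.14 within the low and -3.69 within the high Y-linked arrays. The 4 reversals were of genes that were not called. Mylk2 (-0.14) became 0.0279 without MCUb knockout replicate 3 and ran from -0.369 to 0.0279 over the arrays left out. Slc4a1 (0.07) became -0.0985 without MCU knockout replicate 1 and -0.0187 without MCUb knockout replicate 2, within -0.0985 to 0.19 over the arrays left out. Uty moved furthest, from 1.57 to -0.17 with the Y-linked covariate, which is built from it. The replicate number as a block gave 28 calls, 25 of them among the 35. Same-numbered knockout samples had correlations of deviations of -0.16, -0.06 and -0.11, and 0 of 6 correlated best with their own number. These values gave no sign of pairing by number. They cannot exclude it, because same-numbered knockout samples were of opposite Y-linked level. Of 697 list medians, 22 moved by more than the spread between arrays, and the clock repressors stayed between -0.96 and -0.67 and the output factors between -0.92 and -0.63.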

Other observations

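A further 49 probe sets differed by more than 1.5 on the log2 scale without passing the threshold, 19 higher and 30 lower in the MCU knockout, and in 15 of them the groups overlapped. The genes named here were chosen after their values were seen. Slc15a5, a member of the peptide transporter family, was at 4.53, 9.55 and 9.81 in the MCU knockout and 7.53, 4.34 and 4.38 in the MCUb knockout, so its high arrays were the 3 of high Uty and Kdm5d level. Dupd1, a dual-specificity phosphatase of muscle, was at 8.54, 10.83 and 10.68 against 8.96, 8.03 and 7.23, again highest on those 3 arrays. The difference was 2.55 (SE 1.24, adjusted p = 0.903) for Slc15a5 and 1.94 (SE 0.58, adjusted p = 0.527) for Dupd1.

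Neutrophil granule genes were high on 2 of the 9 arrays, control replicate 3 (10.34 for Ngp and 7.75 for Camp) and MCUb knockout replicate 1. Ngp was at 9.62 on MCUb knockout replicate 1 and at 5.07 and 4.21 on replicates 2 and 3, with the MCU knockout at 4.11, 3.70 and 3.92. Camp, a granule peptide precursor, was at 7.36 on the same array and between 3.51 and 4.57 on the other 5 knockout arrays. Retnla, a secreted product of alternatively activated macrophages and fat, was instead high on MCUb knockout replicates 2 and 3 (10.04 and 11.54) and between 6.82 and 7.37 on the other 4. Its controls were at 9.36, 7.90 and 7.59. Ngp and Camp were above background on no MCU knockout array and on 1 MCUb knockout array. Retnla differed by -2.54 (adjusted p = 0.615), and neither it nor Ngp (adjusted p = 0.9998) nor Camp (adjusted p = 0.9215) passed.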
